A study of Bos taurus with 79 samples.

Results

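The nuclear genes of the mitochondrial respiratory chain were followed in bovine endometrium. Members were taken by symbol: a probe set belonged if its single symbol in the platform annotation began with NDUF, UQCR, ATP5, COX4, COX5, COX6, COX7 or COX8, or was SDHA, SDHB, SDHC, SDHD or CYC1. This gave 110 of 24016 bovine probe sets, for 85 of 9155 named genes. They were 36 genes of complex I, 4 of complex II, 9 of complex III, 13 of complex IV and 17 of complex V, with the NDUFA4 and NDUFA4L2 pair and 4 NDUFAF assembly factors beside them. A gene is represented below by its brightest probe set.

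Cross-bred beef heifers were pregnant or cyclic, carried high or normal progesterone, and were slaughtered on day 5, 7, 13 or 16. The high level was set by a PRID, a progesterone-releasing device placed in the vagina on day 3 and kept there to the end. The groups are written PH (pregnant, high), PN (pregnant, normal), CH (cyclic, high) and CN (cyclic, normal), which makes 16 groups over the 4 days. Each held 5 arrays, except CH on day 7 with 4. All heifers had their oestrous cycles synchronised, and the labels do not say how pregnancy was established. The cyclic heifers were not inseminated. RNA came from strips of whole endometrium, so that fewer cells of a type and less RNA per cell cannot be told apart. The labels name each array a biological replicate and give no batch.

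Complex I takes electrons from NADH and complex II takes them from succinate. Both pass them through ubiquinone to complex III, and cytochrome c carries them on to complex IV, where oxygen is reduced. Complexes I, III and IV pump protons across the inner mitochondrial membrane, and complex V, the ATP synthase, uses the return flow to make ATP. Most subunits are encoded in the nucleus, as all members here are, while a few core subunits are encoded in mitochondrial DNA. In the luteal phase progesterone prepares the endometrium to secrete nutrients for the embryo, and in cattle the conceptus signals its presence through interferon tau around day 16.

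Values are log2 expression values, and a difference of 1 is a doubling. A gene is said to have risen or fallen where limma's Benjamini-Hochberg adjusted p, over all 24016 probe sets, was below 0.05. Levels of different probe sets cannot be compared as amounts of RNA. The member genes had a median signal of 10.19, against 6.76 over all named genes, and 67 of them averaged over 9. Only COX6A2 and NDUFA4L2 stayed under 3 on average, COX6A2 being a heart and skeletal muscle form of complex IV subunit VIa and NDUFA4L2 a hypoxia-inducible relative of NDUFA4. COX6A2 never exceeded 2.83 and NDUFA4L2 never exceeded 2.79 (its other probe set reached 4.45 on its highest array), so that little can be read from them. Array medians ran from 4.71 to 5.12. Epithelial markers averaged 8.34 to 8.51 and stromal markers 10.97 to 11.32 over the 4 days, while red cell markers stayed at 2.59 to 2.66, close to the lowest signals. Some of the 79 arrays stood apart, written here as day, group and replicate. Far from their group mean lay 5 (D5 CH 3, D7 CN 5, D7 CH 3, D13 PH 1 and D13 PH 4), a narrow distribution of values was seen in 2 (D7 CH 3 and D13 PH 1), and high smooth muscle markers in 3 (D5 PN 4, D7 PH 5 and D13 PH 4).

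The respiratory chain genes were high on day 5, somewhat lower on day 7 and clearly lower on days 13 and 16. Averaged over the 85 genes, an array had a level of 10.27 ± 0.14 on day 5 (SD, n = 20), 10.09 ± 0.13 on day 7 (n = 19), 9.58 ± 0.15 on day 13 (n = 20) and 9.64 ± 0.19 on day 16 (n = 20). The highest array of day 13, at 9.84, lay just under the lowest of day 7, at 9.85. By group mean, 73 genes were highest in a group of day 5, and 82 were lowest in a group of day 13 or 16. The plot of complex means by array shows the same order of days in every complex.

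**Figure D1:**
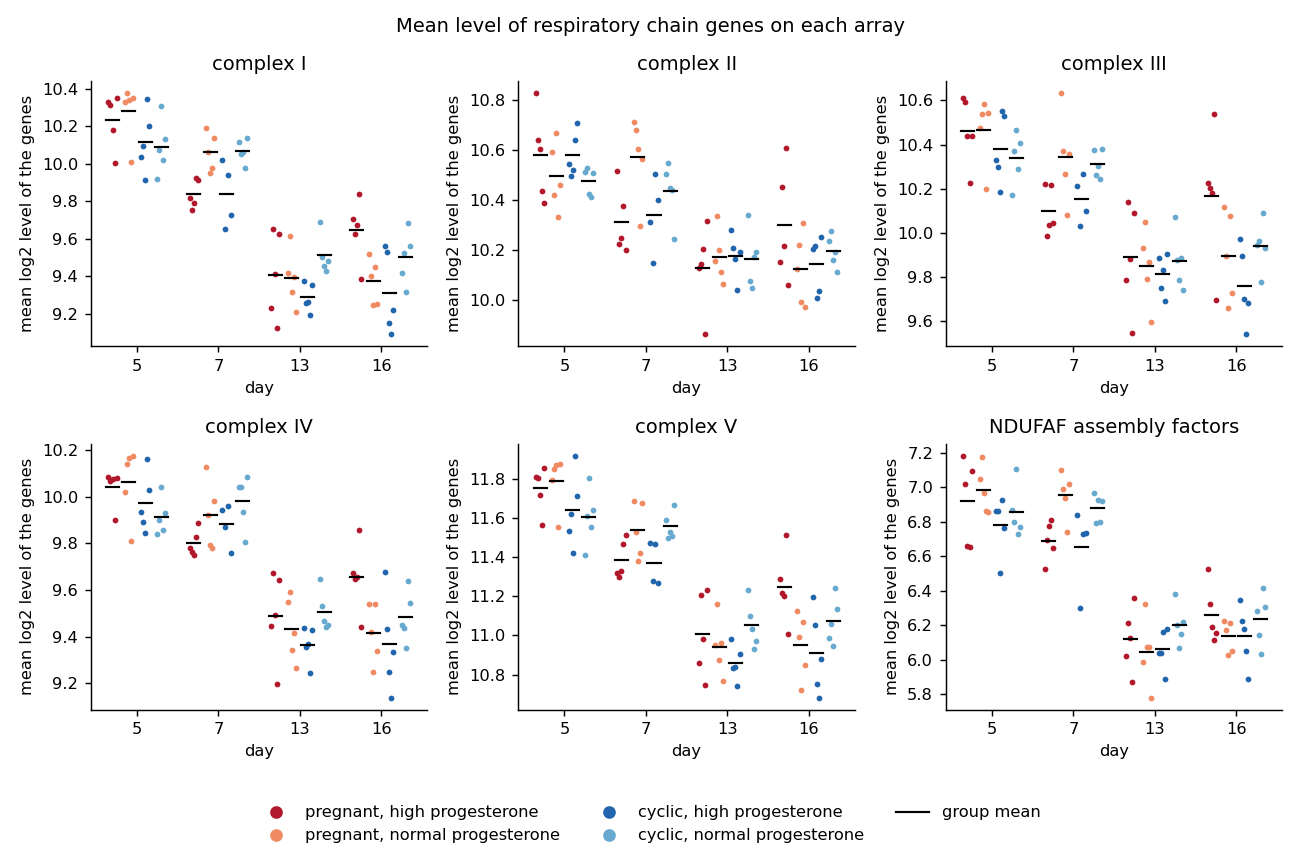
Mean log2 level of the member genes of each complex (y axis) on each array, by day (x axis) and group, with the group mean as a bar. Complex I averaged 10.18 on day 5, 9.96 on day 7, 9.40 on day 13 and 9.46 on day 16, and the points of day 13 lie below those of day 7 without overlap in complexes IV and V and with overlap in complexes I, II and III.

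Between day 7 and day 13, averaged over the 4 groups of each day, 75 of 85 member genes fell and 0 rose. Among all named genes 26.2% fell and 19.5% rose in this comparison. The median difference of the member genes was -0.46, against -0.02 for named genes. Bright genes were called more often: of named genes with a mean over 9, 37.0% fell, while 62 of the 67 member genes at that level did. By sign, called or not, 75 of the 85 genes were lower on day 13 in all 4 groups. These were not the same 75 genes: UQCRC1, NDUFA5 and NDUFS7 were called but did not fall in every group. In 10 genes every array of day 13 was below every array of day 7, against 0.896% of named genes.

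All 36 complex I genes fell, by 0.14 to 1.48. NDUFA11, an accessory subunit of the membrane arm, showed the largest fall in the complex. Over the day 13 arrays NDUFA11 ran from 7.43 through a median of 7.73 to 8.45, against 8.56, 9.33 and 9.75 on day 7. The groups did not overlap, and the difference was -1.48 ± 0.09 (SE), a 2.78-fold fall (adjusted p = 1.77e-23). NDUFB6, an accessory subunit on the membrane arm, ran from 8.90 through 9.28 to 9.64 on day 13, against 9.72, 10.38 and 10.86 on day 7. Here too no array of the later day reached the earlier ones, with a difference of -1.09 ± 0.08 (adjusted p = 1.79e-19).

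The core subunits encoded in the nucleus, most of which carry the flavin or iron-sulfur clusters, fell as well: 6 of 6 measured, with a median of -0.53. All 30 of 30 supernumerary subunits fell too, with a median of -0.48. NDUFS8 holds a pair of iron-sulfur clusters, and it changed by -1.03 ± 0.08. Its highest value on day 13 was 7.58 and its lowest on day 7 was 7.23, so the days overlapped slightly. NDUFV1, which binds NADH and the flavin, changed by -0.60 ± 0.07. NDUFC2 had the highest mean signal of the complex, and its arrays ran from 12.08 to 12.79 on day 13 without reaching the 12.82 to 13.59 of day 7. By brightest probe set, the smallest called falls in the complex were those of NDUFB2 at -0.14 and NDUFA5 at -0.17. Both genes had a further bright set, with means of 9.24 and 9.01, that varied more over the 16 groups. Its group means spanned 0.92 against 0.36 for NDUFB2, and 1.93 against 0.98 for NDUFA5.

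Complex II was split. SDHA, the flavoprotein that oxidises succinate, fell by 0.47 (adjusted p = 2.46e-09), and SDHB, the iron-sulfur subunit, fell by 0.56 (adjusted p = 3.45e-13). The membrane anchors did not pass: SDHC differed by -0.13 ± 0.07 (adjusted p = 0.134) and SDHD by 0.13 ± 0.08 (adjusted p = 0.211). SDHD had 10.57, 10.90 and 11.45 as lowest, median and highest value on day 13, against 10.37, 10.68 and 11.31 on day 7, and the days overlapped almost fully. Whether the anchors differed from the catalytic subunits was not tested.

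In complex III 8 of 9 genes fell, with a median of -0.34. CYC1, cytochrome c1, fell by 0.62 (adjusted p = 1.08e-11) and UQCR11, a small accessory subunit, by 0.68. UQCRH, the hinge protein and the brightest probe set of the complex, fell by 0.34. UQCRQ, a ubiquinone-binding subunit, was not called here, at -0.12 ± 0.07 (adjusted p = 0.21), but it had fallen on the earlier step.

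In complex IV 9 of 13 genes fell, and differences ran from -1.06 to 0.01. For COX5A the day 13 arrays ran from 9.39 through 9.90 to 10.44, against 10.49, 10.96 and 11.35 on day 7. The arrays did not overlap, and the difference was -1.05 ± 0.08 (adjusted p = 7.95e-17). COX7A1, the form of subunit VIIa typical of heart and skeletal muscle, fell by 1.06 (adjusted p = 3.51e-11), and COX7A2, the form found in most tissues, fell by 0.79. COX7A2L, which takes part in joining complexes III and IV, fell by 0.29, COX6A1, the liver-type form, by 0.56, and COX8A by 0.54.

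COX4I1, the common form of the regulatory subunit IV, had 11.88, 12.05 and 12.34 as lowest, median and highest value on day 13, against 11.86, 12.12 and 12.28 on day 7. The days overlapped throughout, and the difference of -0.04 ± 0.04 had an adjusted p of 0.456. Its 16 group means spanned only 0.31, while those of ATP5MC1 spanned 2.16. COX8B, a pseudogene in humans, differed by -0.07 ± 0.04. Its brightest probe set, used throughout, averaged 9.82, while its other set averaged 2.34, near the floor. COX6B2, a testis form, differed by -0.22 ± 0.10 (adjusted p = 0.0695) at a signal near 3.

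In complex V 16 of 17 genes fell, with a median of -0.44. ATP5MC1, ATP5MC2 and ATP5MC3 encode the same mature c subunit of the membrane ring with different import sequences, and the 3 genes moved by unequal amounts. On day 13 ATP5MC1 ran from 6.98 through 7.56 to 8.13, against 8.02, 9.07 and 9.68 on day 7, with a difference of -1.49 ± 0.10 (adjusted p = 8.01e-21). A single pair of extreme arrays made its days overlap. ATP5MC3 differed by -0.60 ± 0.07 (adjusted p = 8.86e-11), and ATP5MC2 by -0.15 ± 0.06, just past the threshold (adjusted p = 0.0482). ATP5MC2 ran from 11.96 through 12.27 to 12.51 on day 13, against 12.11, 12.46 and 12.75 on day 7, and most arrays lay in the shared range. No test compared the 3 genes with one another, the sequences of their probes were not used here, and ATP5MC2 and ATP5MC3 were added to the text after their values had been seen.

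The F1 head, which makes ATP, fell in 5 of 5 genes by 0.24 to 0.62, and the peripheral stalk fell in 4 of 4. ATP5F1A, the alpha subunit and the brightest probe set of the complex, fell by 0.24. ATP5PF, coupling factor 6 in the stalk, ran from 10.63 to 11.13 on day 13, against 11.16 to 11.82 on day 7, without overlap. ATP5IF1, which inhibits the enzyme when it runs in reverse, was the member of the complex that did not pass, at -0.12 ± 0.06 (adjusted p = 0.15).

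NDUFA4 was first described in complex I and is now counted with complex IV. It had 10.41, 10.78 and 11.33 as lowest, median and highest value on day 13, against 11.42, 11.91 and 12.10 on day 7, without overlap. The difference was -1.04 ± 0.08 (adjusted p = 9.69e-18). Among the NDUFAF factors, which help to build complex I, NDUFAF5 fell by 1.28 without overlap, NDUFAF8 by 1.02 and NDUFAF3 by 0.47. NDUFAF6 differed by 0.01 at a signal near 3.4.

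**Figure D2:**
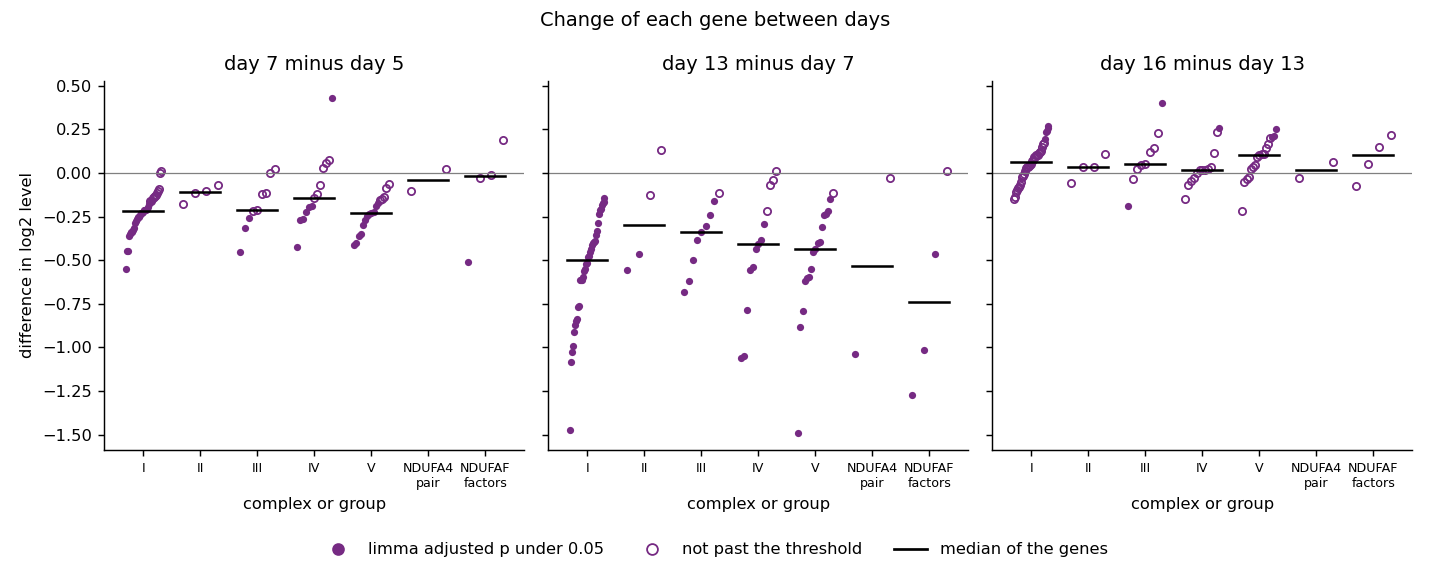
Difference in log2 level (y axis) of each of the 85 genes between successive days, grouped by complex (x axis), with filled points past limma's adjusted p of 0.05 and a bar at the median of each group. In the middle panel 75 points are filled and below 0, while the right panel lies around a median of 0.05.

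**Figure D3:**
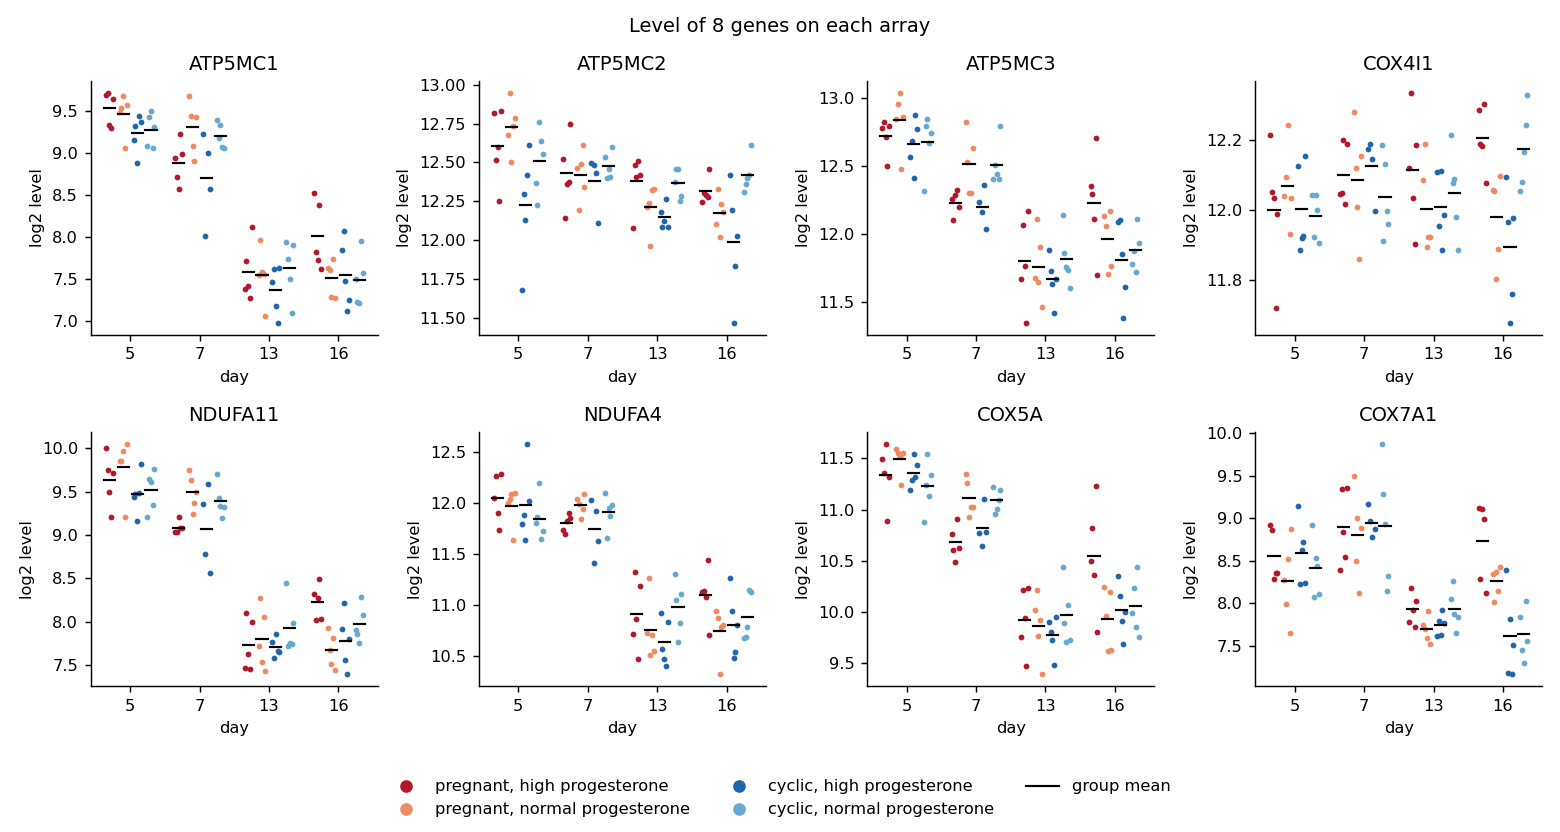
Log2 level (y axis) of 8 genes on each array by day (x axis) and group, with group means as bars and a y axis of its own in each panel. The 3 c-ring genes drop by different amounts from day 7 to day 13 and COX4I1 stays near 12, and COX7A1 on day 16 is higher in most pregnant than in most cyclic heifers.

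Across the 85 genes, which are not independent replicates and share all arrays, mean level and difference had a Pearson r of -0.01 and a Spearman rho of 0.14. Further probe sets of the same genes were mostly dim, with a median mean of 3.70. Of these 25, 7 fell and 3 rose between days 7 and 13. Among the bright ones, ATP5MG changed by -0.69 beside -0.46 for its brightest set, and NDUFA5 by -1.15 beside -0.17 (limma, all 4 called). NDUFB2 and NDUFAF3 also had bright further sets (means of 9.24 and 8.34), whose changes on this step are not given here. Directions disagreed for UQCRC2 (0.35 beside -0.16), ATP5F1D (0.33 beside -0.62) and COX6C (0.41 beside -0.43), the second value being that of the brightest set.

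Cell type markers also moved on this step. Of 9 endothelial markers 7 rose and 0 fell, and their mean ran from 5.29 to 6.17 on day 13, against 4.92 to 5.59 on day 7. Epithelial markers rose in 2 and fell in 4 of 10 (7.74 to 8.69 on day 13, 8.03 to 8.69 on day 7), stromal markers rose in 2 and fell in 3 of 9 (10.71 to 11.42, 10.83 to 11.55). Smooth muscle markers rose in 1 and fell in 1 of 8, leukocyte markers rose in 1 of 11, ciliated cell markers fell in 1 of 3, and red cell markers rose in 1 and fell in 1 of 5. Their part in the fall of the respiratory chain genes was not tested. With the 5 far arrays left out 69 member genes fell, with the 2 narrow arrays left out 73, and with the 3 arrays of high muscle markers left out 72. Shares of named genes under these 3 fits are not given here.

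On the earlier step, from day 5 to day 7, 47 of 85 member genes fell and 1 rose, where 19.5% of named genes fell and 9.42% rose. The median was -0.20, against -0.02 for named genes. Of these 47 genes 45 also fell on the next step, and UQCRQ and COX8B did not. On that step 75 of all 85 member genes fell. Complex I gave 25 of the 47 and complex V 12, next to 6 from complex IV, 3 from complex III, 1 NDUFAF factor and 0 from complex II, where limma's unadjusted p was below 0.05 for 1 gene.

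NDUFS8 ran from 7.23 through 8.03 to 8.59 on day 7, against 8.02, 8.60 and 9.09 on day 5. The upper part of day 7 covered the lower part of day 5, and the difference was -0.55 ± 0.08 (adjusted p = 4.22e-07). NDUFAF8 differed by -0.51, UQCRQ by -0.45, NDUFA5 and NDUFS4, accessory subunits of complex I, by -0.45 each, and COX5A by -0.42. By brightest probe set COX7A1 was the gene that rose: it had 8.13, 8.88 and 9.87 on day 7, against 7.66, 8.40 and 9.14 on day 5 (0.43 ± 0.12, adjusted p = 0.00615). On the next step it fell by 1.06. Of the 25 further probe sets of member genes, mostly dim, 1 rose and 4 fell from day 5 to day 7, with a median of 0.007.

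The fall to day 7 was not seen in each group. In PH heifers 31 genes fell (background 6.01% of named genes), in PN heifers 7 (4.46%), in CH heifers 23 (13.5%) and in CN heifers 0 (0.0109%), where the median difference was -0.02. ATP5PF, for example, changed by -0.47 ± 0.09 in PH and by -0.47 ± 0.10 in CH heifers, with -0.16 ± 0.09 in PN and 0.03 ± 0.09 in CN heifers. Whether the step differed between the groups was not tested. Leukocyte markers fell in 6 of 11 on this step, with means of 4.68 to 6.73 on day 7, against 5.13 to 8.67 on day 5. Stromal markers fell in 5 of 9 (10.83 to 11.55, against 11.02 to 11.59), smooth muscle markers in 2 of 8 (7.43 to 11.28, against 7.77 to 11.56), and epithelial markers rose in 2 and fell in 2 of 10. Their part in the result was not tested.

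The later fall was present in all 4 groups: from day 7 to day 13 there were 34 genes in PH (12.9% of named genes fell), 66 in PN (15.3%), 54 in CH (14.3%) and 61 in CN heifers (12.9%). Medians were -0.32, -0.55, -0.47 and -0.44 in the same order of groups.

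Between day 13 and day 16, 10 of 85 genes rose and 1 fell, where 7.27% of named genes rose and 4.4% fell. Limma's unadjusted p was below 0.05 for 24 member genes (28.2%), a share near the 25.1% of named genes. UQCR11 rose most, with 9.12, 9.87 and 10.95 as lowest, median and highest value on day 16, against 8.89, 9.51 and 10.06 on day 13. The days overlapped over most of their range (0.40 ± 0.09, adjusted p = 0.00189). NDUFA9, an accessory subunit at the junction of the 2 arms of complex I, rose by 0.27, NDUFA5 and COX5A by 0.26 each, ATP5IF1 by 0.25 and NDUFS4 by 0.24. UQCRH fell by 0.19 (adjusted p = 0.0133).

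Taken group by group, calls came mostly from PH heifers, and the difference between groups was not tested. In PH heifers 9 genes rose (4.0% of named genes did), among them UQCR11 at 0.77, COX7A1 at 0.80 and ATP5IF1 at 0.66. No gene rose in PN (1.32%), CH (0.186%) or CN heifers (0.36%) by limma, and ATP5MJ, a small membrane subunit, fell by 0.64 in PN heifers (1.06% of named genes fell). Without D16 PH 4 the rises numbered 6, without D16 PH 5 they numbered 13, and with the far arrays left out 6 genes rose and 3 fell. With array weights 7 rose and 7 fell, with a median of -0.004. Shares of named genes under these alternative fits are not given here.

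On day 7 high progesterone went with lower levels. Of 85 genes 12 were lower in the PH and CH heifers than in PN and CN heifers and 0 were higher, where 4.52% of named genes were lower and 2.16% higher. By sign 77 genes were lower by their brightest probe sets, with a median of -0.18, against -0.01 for named genes. Of the 25 further probe sets of member genes, mostly dim, 0 were called, and their median was 0.013. Limma's unadjusted p was below 0.05 for 45 member genes (52.9%) and for 22.7% of named genes. By sign the differences leaned the same way in pregnant heifers (77 of 85 genes, median -0.17) and in cyclic heifers (75 of 85, median -0.19). Few were called within a status: 0 genes in pregnant heifers (0.437% of named genes were lower) and 1 in cyclic heifers (2.99%).

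The genes were spread over complex I (6), complex III (3) and complex V (3). ATP5PF, the stalk subunit, had 11.22, 11.27, 11.28, 11.38 and 11.43 in PH and 11.35, 11.21, 11.38 and 11.16 in CH heifers, against 11.64, 11.62, 11.54, 11.50 and 11.60 in PN and 11.52, 11.52, 11.55, 11.51 and 11.82 in CN heifers. No treated heifer reached an untreated one, which held for 0.12% of named genes, and the difference was -0.29 ± 0.07 (adjusted p = 0.00521). NDUFS8 had a mean of 7.79 ± 0.26 with high progesterone (SD, n = 9) and 8.28 ± 0.19 without (n = 10). It ran from 7.23 through 7.81 to 8.18, against 7.90, 8.30 and 8.59, so that the groups overlapped in part (-0.48 ± 0.12, adjusted p = 0.00686).

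ATP5MC1 differed by -0.46 ± 0.14, UQCRFS1, the Rieske iron-sulfur protein of complex III, by -0.46 ± 0.12, NDUFB5 by -0.46 ± 0.12 and NDUFB6 by -0.45 ± 0.11, both accessory subunits of complex I. UQCRQ and UQCRB followed at -0.34 and -0.32. Of the 12 genes 11 also fell between days 7 and 13, a step on which 75 of all 85 member genes fell. ATP5PF, NDUFS8 and NDUFB6 kept the call in each of 19 fits that left out 1 array of day 7. UQCRFS1 and NDUFB5 lost it in 1, without D7 CH 3, which had the narrowest distribution (SD 2.6), and the other 7 genes lost it in 6 to 12 of the fits. Their differences kept their sign throughout, UQCRB for example running from -0.35 to -0.27. Without D7 CH 3 the count was 3, and without D7 CH 2 it was 18. It was 5 under median centring, 7 under quantile normalization and 3 with day 7 fitted alone. Shares of named genes under these alternative fits are not given here.

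No marker list held a called gene in this comparison, by limma. Leukocyte markers had a median difference of -0.49, with means of 4.68 to 5.64 in PH and 4.94 to 5.09 in CH heifers, against 4.78 to 5.90 in PN and 4.91 to 6.73 in CN heifers. Smooth muscle markers ran from 7.92 to 11.28 and from 7.63 to 7.98, against 7.43 to 8.52 and 7.76 to 8.95, in the same order. Their part in the result was not tested. With the 3 arrays of high muscle markers left out 8 genes were lower, and the share of named genes in that fit is not given here.

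On the other days no member gene passed by limma for progesterone. On day 5, 1.21% of named genes passed in either direction. An unadjusted p below 0.05 was found for 5 member genes (5.88%) and for 13.1% of named genes, with NDUFA5 at -0.23 ± 0.08 (adjusted p = 0.165) and ATP5MC2 at -0.21 ± 0.09 (adjusted p = 0.336) nearest the threshold. On day 13, 0.634% of named genes passed, and the unadjusted p was below 0.05 for 10 member genes (11.8%) and for 8.2% of named genes, with ATP5MJ at -0.50 ± 0.13 (adjusted p = 0.0586) and NDUFB11 at -0.30 ± 0.10 (adjusted p = 0.263). On day 16, 0.0874% passed, and the unadjusted p was below 0.05 for 5 member genes (5.88%) and for 10.4% of named genes, with NDUFAB1, the acyl carrier protein, at 0.27 ± 0.08 (adjusted p = 0.181) and COX8B at -0.18 ± 0.06 (adjusted p = 0.199).

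**Figure D4:**
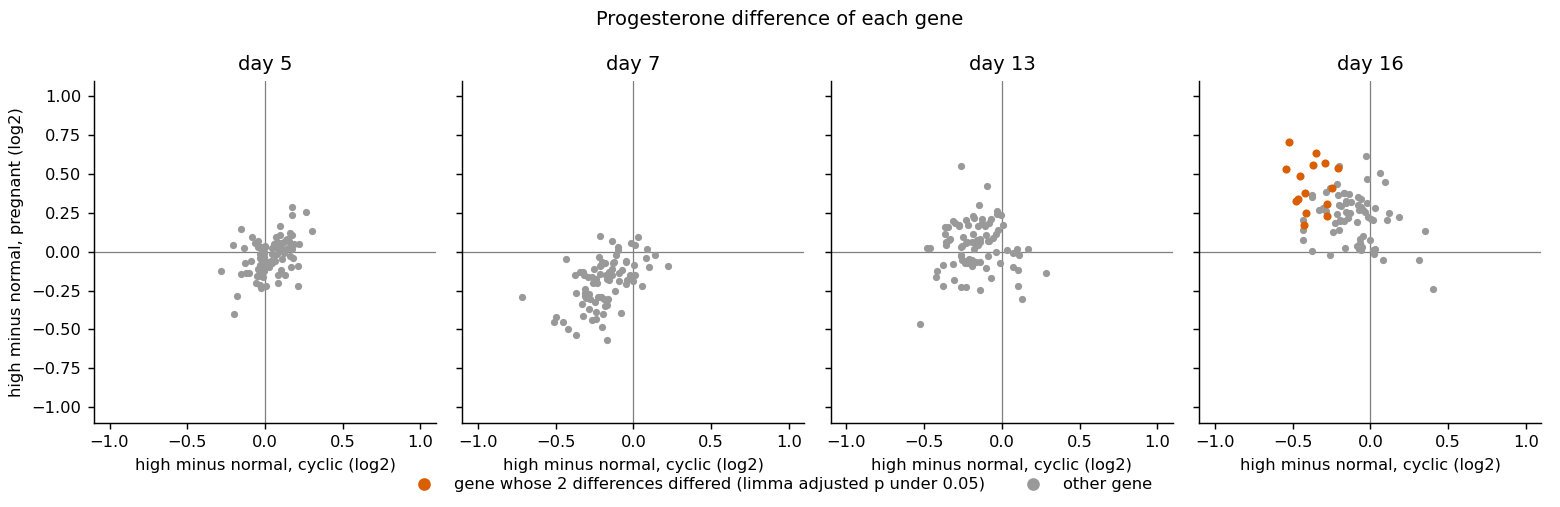
High minus normal progesterone difference in log2 level of each of the 85 genes in pregnant heifers (y axis) against the same in cyclic heifers (x axis), 1 panel a day, with genes whose 2 differences differed by limma in orange. On day 7 most genes lie below 0 on both axes, and on day 16 the 15 orange genes all lie above 0 in pregnant and below 0 in cyclic heifers.

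On day 16 the progesterone difference depended on status. The progesterone difference in pregnant heifers exceeded that in cyclic heifers for 15 of 85 genes and was smaller for 0, where 1.27% and 0.284% of named genes passed. By sign 78 genes leaned this way by their brightest probe sets, with a median of 0.42 against -0.01 for named genes. The 25 further probe sets of member genes, mostly dim, did not share this lean: 0 were called, and their median was -0.015. In pregnant heifers 80 genes were higher with high progesterone by sign (median 0.26, 2 called, background 0.131%). In cyclic heifers 70 were lower by sign (median -0.16, 9 called, background 2.41%).

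ATP5F1D, the delta subunit at the foot of the F1 head, had 9.46, 9.09, 9.13, 9.67 and 8.85 in PH and 8.78, 8.64, 8.09, 8.60 and 8.54 in PN heifers. In CH heifers it had 8.94, 8.50, 7.90, 7.83 and 8.31, and in CN heifers 8.62, 8.76, 8.75, 8.91 and 9.04. Every PH array was above every PN array, while the CH arrays lay mostly below the CN arrays. The progesterone difference was 0.71 ± 0.15 in pregnant and -0.52 ± 0.15 in cyclic heifers, and the gap between them was 1.23 ± 0.21 (adjusted p = 0.00145).

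NDUFS8 had 7.82, 7.33, 7.32, 7.56 and 7.31 in PH and 7.30, 6.76, 6.79, 7.05 and 6.77 in PN heifers. In CH heifers it had 7.03, 6.74, 6.66, 6.48 and 7.02, and in CN heifers 7.23, 7.33, 7.21, 7.49 and 7.36. All PH arrays lay above all PN arrays and all CH arrays below all CN arrays, with a gap of 1.07 ± 0.23 (adjusted p = 0.0159). NDUFA9 averaged 8.82 ± 0.39 in PH, 8.33 ± 0.28 in PN, 8.08 ± 0.19 in CH and 8.54 ± 0.11 in CN heifers (SD, n = 5 each), a gap of 0.94 ± 0.17 (adjusted p = 0.00753).

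UQCR11 had a gap of 0.99 ± 0.26, NDUFV1 of 0.93 ± 0.21 and NDUFA3, an accessory subunit, of 0.86 ± 0.22. UQCRC1, a core protein of complex III, had 0.81, ATP5IF1 0.75 and SDHB 0.58. COX4I1, steady over the days, also passed, at 0.51 ± 0.11 (adjusted p = 0.0217), with 12.21 ± 0.09 in PH, 11.98 ± 0.13 in PN, 11.89 ± 0.17 in CH and 12.17 ± 0.11 in CN heifers (SD, n = 5 each). The 15 genes were 8 of complex I, 1 of complex II, 3 of complex III, 1 of complex IV and 2 of complex V.

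The number depended on single arrays and on the fit. Without D16 CH 3 the genes called were 2, ATP5F1D and NDUFA9, without D16 CH 1 they were 24, and with day 16 fitted alone 1. Shares of named genes under these alternative fits of day 16 are not given here. No marker list held a called gene for this interaction by limma. Epithelial markers averaged 8.59 in PH, 8.45 in PN, 8.36 in CH and 8.60 in CN heifers, a gap of 0.37 in the list mean in the same direction as the member genes (gene median 0.19). Smooth muscle markers went the other way, with a gap of -0.32 in the list mean (gene median -0.46), with means of 6.77 to 8.32 in PH and 6.95 to 7.73 in PN heifers, and of 7.65 to 8.52 in CH and 7.11 to 8.67 in CN heifers. The gaps of the other 5 lists lay between -0.12 and 0.02. The part of these markers in the result was not tested. On days 5, 7 and 13 no member gene passed for the interaction by limma (named genes 0.0%, 0.0109% and 0.0%). The unadjusted p was below 0.05 for 1 member gene on day 5 (1.18%, against 2.99% of named genes), for 2 on day 7 (2.35%, against 12.6%) and for 20 on day 13 (23.5%, against 10.5%). On day 13 array weights gave 32 genes, all upward, and a fit of that day only gave 2. The shares of named genes under these 2 fits are not given here, so the counts cannot be read as particular to the member genes. The weights ran from 0.0198 to 2.99, with D13 PH 1 at 0.0476. In the main fit the nearest to the threshold were NDUFV3 on day 5 at -0.43 ± 0.19, NDUFA4L2 on day 7 at -0.27 ± 0.09 and ATP5F1D on day 13 at 0.82 ± 0.21 (adjusted p = 0.131).

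**Figure D5:**
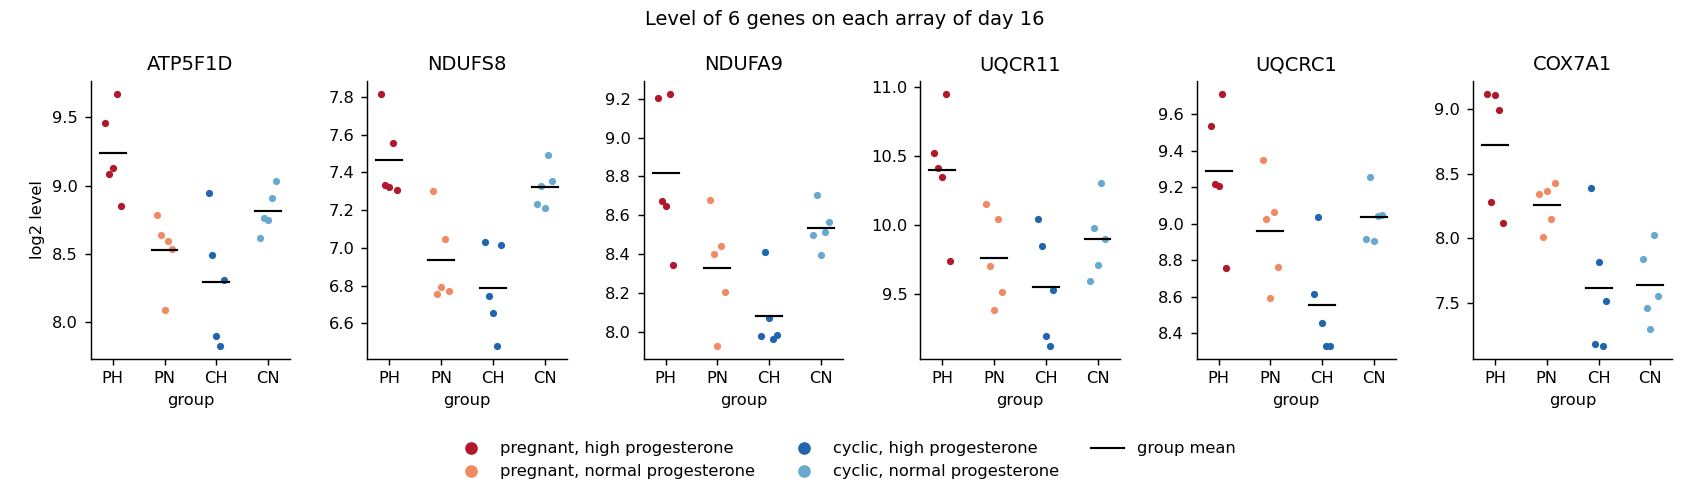
Log2 level (y axis) of 6 genes on each array of day 16 in PH, PN, CH and CN heifers (x axis), with group means as bars and a y axis of its own in each panel. ATP5F1D, NDUFS8, NDUFA9, UQCR11 and UQCRC1 are highest in PH and lowest in CH heifers, while COX7A1 is higher in both pregnant groups than in both cyclic groups.

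Averaged over progesterone, 2 of 85 genes differed between pregnant and cyclic heifers on day 16, both higher in pregnant heifers. Among named genes 2.84% were higher and 1.29% lower, so the share of member genes was near that of all named genes. As the cyclic heifers were not inseminated, pregnancy cannot be told apart from the way it was established. COX7A1 had 9.12, 8.28, 9.11, 8.99 and 8.12 in PH and 8.34, 8.01, 8.37, 8.15 and 8.43 in PN heifers. In CH heifers it had 8.39, 7.18, 7.81, 7.17 and 7.51, and in CN heifers 7.84, 7.46, 7.30, 8.03 and 7.55. The pregnant arrays lay above most cyclic arrays, and the difference was 0.87 ± 0.17, a 1.83-fold rise (adjusted p = 0.000305). It was 1.12 ± 0.24 at high and 0.62 ± 0.24 at normal progesterone, where it was not called (adjusted p = 0.484). The call stood in each of 20 fits that left out 1 array.

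UQCRC1 rose by 0.33 ± 0.09 (adjusted p = 0.0297), with 0.73 ± 0.13 at high and -0.08 ± 0.13 at normal progesterone. Its call was lost in 10 of the 20 fits that left out 1 array. At high progesterone alone 26 member genes were higher in pregnant heifers (6.52% of named genes), and at normal progesterone 0 (0.743%), where 71 of 85 were lower by sign. Endothelial markers fell in 3 of 9 with pregnancy, with means of 5.21 to 5.84 in PH and 5.17 to 5.99 in PN, against 5.35 to 6.14 in CH and 5.40 to 6.21 in CN heifers. Stromal markers fell in 2 of 9 (10.56 to 11.32 and 10.81 to 11.07, against 10.72 to 11.40 and 10.79 to 11.14), leukocyte markers rose in 2 of 11 and epithelial markers in 1 of 10. Their part in the result was not tested. Without D16 PH 5 the count was 12. The share of named genes in that fit is not given here, so this count cannot be read as particular to the member genes.

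On days 5, 7 and 13 no member gene differed with pregnancy by limma, where 0.0328%, 0.0% and 0.0% of named genes passed. On day 5, 79 of 85 genes were higher in pregnant heifers by sign, with a median of 0.13, and 20 had an unadjusted p below 0.05 (23.5%, against 10.8% of named genes). COX6B2 at 0.49 ± 0.14 (adjusted p = 0.206) and ATP5MC2 at 0.30 ± 0.09 (adjusted p = 0.223) came nearest. On day 7, 1 gene had an unadjusted p below 0.05 (1.18%, against 6.58% of named genes), COX6B2 at -0.38 ± 0.14, and on day 13 there were 0 (against 2.62%).

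Other lists of mitochondrial and energy genes were read between days 7 and 13 beside the 26.2% of named genes that fell and the 19.5% that rose. Of 13 genes of the tricarboxylic acid cycle and pyruvate dehydrogenase 10 fell and 1 rose: OGDH, of the oxoglutarate dehydrogenase complex, changed by -1.69, CS, citrate synthase, by -0.90, and PDHA1 by 0.43. Of 16 glycolytic genes 12 fell and 0 rose, with LDHA, a lactate dehydrogenase subunit, at -2.54, GAPDH at -0.87 and LDHB at -0.87. Of 11 electron carriers and membrane carriers 9 fell, VDAC2, an outer membrane channel, by 1.04.

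The mitochondrial ribosome, which makes the subunits encoded in mitochondrial DNA, fell in 35 of 67 genes and rose in 3, with a median of -0.20. Assembly factors outside the NDUFAF group fell in 9 of 19, antioxidant and uncoupling genes in 4 of 7 (GPX4, a peroxidase that reduces lipid peroxides, at -1.13). Import and folding genes fell in 4 of 11, with a median of -0.08, a share near that of all named genes. Regulators of mitochondrial biogenesis went both ways: 4 of 10 rose, among them POLG2 at 0.58 and NRF1 at 0.51, and 2 fell, among them PPARGC1A, a coactivator, at -1.07. PPARGC1A had risen from day 5 to day 7, by 0.57.

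On the step from day 5 to day 7, where 19.5% of named genes fell and 9.42% rose, 41 of 67 mitochondrial ribosome genes fell and 1 rose, 10 of 16 glycolytic genes fell, 7 of 13 cycle genes fell, and 7 of 11 import and folding genes fell and 1 rose. Of the rest, 7 of 19 assembly factors fell and 1 rose, 2 of 11 carriers fell, 3 of 7 antioxidant genes fell and 1 rose, and 2 of 10 regulators fell and 1 rose. On the step to day 16, where 7.27% rose and 4.4% fell, the mitochondrial ribosome rose in 13 and fell in 1. Import and folding genes rose in 4 (HSPA9 by 0.24, PHB1 by 0.37), glycolytic genes rose in 3 and fell in 1, and cycle genes rose in 2 (MDH2 by 0.37) and fell in 1. Assembly factors rose in 2, regulators in 1, and 1 carrier and 1 antioxidant gene fell.

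With high progesterone on day 7, where 4.52% of named genes were lower, mitochondrial ribosome genes were lower in 7 of 67, led by MRPS28 at -0.78, and assembly factors in 3 of 19, with ATPAF2, needed for complex V, at -0.93. CS and IDH3A were lower by 0.42 and 0.48, which made 2 of 13 cycle genes. TIMM23, an import channel, was lower by 0.54 (1 of 11 import and folding genes). TFB2M, a mitochondrial transcription factor, was lower by 0.45 (1 of 10 regulators, with a list median of -0.02). No glycolytic gene passed by limma in that comparison, which has a list median of -0.05. For the day 16 interaction, where 1.27% of named genes passed upward, 8 of 67 mitochondrial ribosome genes passed, all upward, with MRPL12 at 1.46. FH and SUCLG1 passed among 13 cycle genes, and SLC25A6, an ADP/ATP carrier, at 0.74 among 11 carriers. ALDOA passed at 1.06 (1 of 16 glycolytic genes), CLPP at 0.70 (1 of 11 import and folding genes) and TXN2 at 0.74 (1 of 7 antioxidant genes). No regulator and no assembly factor of these lists passed.

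Across the 11 comparisons without interactions no member gene was called in more than 3. There were 8 member genes that fell on neither step to day 13: ATP5IF1, COX4I1, SDHC and SDHD, and at signals near or under 3.4 COX6A2, COX6B2, NDUFA4L2 and NDUFAF6.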

How the data were processed

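The deposited table holds log2 expression values, per the file headers and the range of the values (0.948 to 15.372), for 24128 probe sets of an Affymetrix bovine array on 79 arrays of total endometrial RNA. RMA, GCRMA and limma are named in the submitters' processing notes, without versions or roles, so that it is not known which of RMA and GCRMA made these values. Leaving out 112 control probe sets kept 24016. Of these 13292 had 1 symbol, 86 had several and 10638 had none. All 110 member probe sets matched the current gene table by gene ID. The number of arrays limits the precision.

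Limma 3.58.1 (with statmod 1.5.0 in R 4.3.3) was fitted with 16 group means over all 79 arrays (63 residual degrees of freedom). P-values were adjusted by Benjamini-Hochberg over 24016 probe sets within each of 15 comparisons, with 0.05 as threshold. Results were tabulated and drawn with Python 3.11.15, pandas 2.3.3 and matplotlib 3.10.9, and the fit was tested on simulated data. Samples were grouped by the labels' day, status and progesterone. No pair of arrays held identical values (highest correlation 0.993). Alternatives were quantile normalization, median centring, brighter probe sets only, array weights, a replicate block, the days concerned only, single arms and leaving out each array. Leaving out the arrays that stood apart, and further single arms, were chosen after seeing the data.

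The members and lists were chosen with earlier results of these data known. Genes were named by a rule: the 6 largest called in each direction, the 2 of lowest p where none passed, the brightest of each complex, fixed tissue forms, the complex II genes, CYC1 and the NDUFAF factors, genes whose probe sets disagree, and up to 3 of each list. Other genes named were chosen after their values were seen.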

Additional observations from a re-analysis of the deposited data

Results flagged for a closer look

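Dixon's criterion for an array that lies apart is met by chance alone in about 1 in 20 sets of values. In groups of 4 or 5 arrays, 24 of 384 tested sets met it, a share near chance. The sets are not independent, as complex means and their own genes come from the same arrays. D5 PN 4, an array with high smooth muscle markers, was lowest in its group in 8 of the 24: the mean of all member genes was 10.104 (the others 10.376 to 10.429), that of complex I 10.01, of complex III 10.196 and of complex V 11.558, and NDUFA11 was at 9.205, COX5A at 11.242, NDUFA4 at 11.636 and ATP5PF at 11.394. Of complex means, D13 CN 1 was highest for complex I at 9.688, D5 PH 4 lowest for complex IV at 9.902 and D16 PN 3 lowest for the NDUFA4 pair at 6.284.

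Single genes gave the rest. ATP5MC2 was lowest in D7 CH 5 at 12.11 and in D13 PH 1 at 12.076, and highest in D16 PH 5 at 12.455. ATP5MC3 was highest in D7 CN 5 at 12.797. NDUFA4 was highest in D13 PN 2 at 11.266 and lowest in D16 PN 3 at 10.323. SDHD was highest in D7 CN 2 at 11.177 and in D13 CN 5 at 11.164, and ATP5F1D lowest in D7 CN 2 at 8.841. ATP5PF was highest in D5 CH 4 at 12.252 and in D7 CN 5 at 11.816, NDUFB6 highest in D5 CH 4 at 10.972, and NDUFA9 highest in D16 CH 2 at 8.412.

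On day 16 the progesterone difference in pregnant heifers differed from that in cyclic heifers, by limma's test of the difference itself, for 15 genes. The log2 gaps were 1.23 for ATP5F1D, 1.073 for NDUFS8, 0.986 for UQCR11, 0.943 for NDUFA9, 0.931 for NDUFV1, 0.861 for NDUFA3, 0.809 for UQCRC1, 0.801 for NDUFB7 and for NDUFB8, 0.749 for ATP5IF1, 0.664 for NDUFB10, 0.658 for NDUFA8, 0.599 for UQCRC2, 0.582 for SDHB and 0.508 for COX4I1.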

How the results depend on the processing

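Counts here are member probe sets called of 110. Progesterone on day 7 gave 12, and 7 under quantile normalization, 5 under median centring, 5 with array weights, 3 with day 7 only, 5 without the far and 3 without the narrow arrays, 2 in cyclic and 0 in pregnant heifers. Progesterone on day 13 gave 0, and 1 with brighter probe sets and 1 with array weights. Progesterone on day 16 gave 0, and 13 with array weights, 4 without the far and 4 without the narrow arrays, 9 in cyclic and 2 in pregnant heifers. Pregnancy on day 16 gave 2, and 23 with array weights, 1 with day 16 only, 27 at high and 0 at normal progesterone. Day 7 minus 5 gave 53, and 31 in PH, 8 in PN, 29 in CH and 0 in CN heifers. Day 13 minus 7 gave 85, and 38 in PH heifers. Day 16 minus 13 gave 11, and 7 with these days only, 1 in PN, 0 in CH and 0 in CN heifers. The interaction gave 0 on day 13, and 33 with array weights and 2 with that day only, and 15 on day 16, and 58 with array weights and 1 with that day only. Shares of all probe sets called under these alternatives are not given here, and the cause was not tested.

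Leaving out 1 array at a time gave 0 to 1, 3 to 19, 0 to 1 and 0 to 0 for progesterone on days 5, 7, 13 and 16, and 0 to 0 for pregnancy on days 5, 7 and 13, with 1 to 12 on day 16. It gave 47 to 58, 81 to 86 and 7 to 14 for the 3 day steps, and 0 to 0, 0 to 5, 0 to 0 and 2 to 24 for the interaction on the 4 days.

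Same-numbered arrays were not paired by the labels, and their deviations correlated by -0.01 to 0.05 on average per day. With the replicate number as a block the counts were 12 for progesterone on day 7, 2 for pregnancy on day 16, 52, 83 and 10 for the day steps, 15 for the day 16 interaction, and 0 elsewhere.

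Of 2220 values of called probe sets under the alternatives, 1761 kept direction and call, 436 lost the call and 23 turned, all in single arms. For pregnancy on day 16 at normal progesterone UQCRC1 was -0.076. For day 7 minus 5 in CN heifers UQCRB was 0.044, ATP5PF 0.027, ATP5MF 0.101, ATP5F1C 0.015, a second set of NDUFA5 0.118, COX7A2 0.102, ATP5F1E 0.041, NDUFS6 0.021, a second set of NDUFB2 0.002, NDUFB3 0.012, NDUFA6 0.070, COX7C 0.125 and NDUFV2 0.075. In CH heifers the second set of NDUFB2 was 0.036, and in PN heifers NDUFB5 was 0.134. For day 13 minus 7 in PH heifers UQCRC1 was 0.012, NDUFA5 0.018 and a second set of UQCRC2 -0.076, and in CH heifers NDUFS7 was 0.055. For day 16 minus 13 NDUFAB1 was -0.006 in PN heifers, and in CH heifers NDUFA10 was -0.002 and NDUFA9 -0.082. Signals near the floor limit what can be read of COX6A2, NDUFA4L2, COX6B2 and NDUFAF6.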
